A study of Mus musculus with 87 samples.

Results

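The DNA replication machinery genes are 47 protein-coding genes whose products license origins, open and copy DNA, join the new strands and supply deoxynucleotides. They were chosen by name from the 37991 genes of a mouse liver RNA-Seq table, without use of their measured values, and all 47 passed the detection threshold that left 15396 genes for testing. Livers were collected from C57BL/6 male mice, entrained to a light and feeding cycle with food between ZT12 and ZT24 (ZT, Zeitgeber Time, hours after lights on). The mice were 12 to 14 weeks old at surgery, and thus older where collection came weeks later. Collection followed partial hepatectomy (PH, labelled X) or a sham operation in which the abdomen was opened and no liver was removed (labelled S). Both operations were done at ZT2. The number after the letter is the hour of collection, or the week where W follows. Unoperated mice gave C0 (9 livers, ZT2), C4 (3, ZT6) and C4W (2, matched to 4 weeks). The sham groups were S1 (6), S4 (5), S10 (3), S20 (3) and S48 (3), and the post-PH groups were X1 (6), X4 (3), X10 (6), X20 (6), X28 (3), X36 (6), X44 (3), X48 (5), X72 (3), X1W (3) and X4W (2). The labels name no altered allele and no drug, and each library is taken here as 1 liver. The groups differ in surgery, in time and in part in experimental period, since the mice were studied in 3 periods. C0 comes from all of them and C4 from the third alone. S48, X28, X44, X48, X72 and X1W come from the first period alone. S10, S20, C4W and X4W come from the second alone, and S1, S4, X1, X10, X20 and X36 were collected in both. X4 was collected in both as well, but only its replicates 4 to 6 are used here, and these need not span both periods. Which replicate numbers belong to which period is not given in the sources used here, so the fit holds no term for it, and within-period values could not be had for comparisons that cross periods. Splits by replicate number are given in their place where a group has both low and high numbers.

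DNA replication starts when the origin recognition complex, with Cdc6 and Cdt1, loads the hexameric Mcm2 to Mcm7 helicase onto DNA in G1 phase. At S phase the Cdc7-Dbf4 kinase, together with cyclin-dependent kinases, turns this ring into an active helicase by adding Cdc45 and the GINS complex. Primase with polymerase alpha then lays down primers that polymerases delta and epsilon extend on the sliding clamp Pcna. Many of these genes are known targets of the E2F transcription factors, and in the resting adult liver, where hepatocytes seldom divide, most are weakly transcribed until the liver is resected.

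Promoters of 5 members are shown because E2F motifs can be read in 4 of them, whereas the fifth, that of Rrm2, holds none of the E2F letters searched although its change at 36 h (log2 fold change 4.32) was within the range of the MCM genes. Each stretch is the 180 bases before the RefSeq transcription start on assembly GRCm38.p6, read 5′ to 3′ along the gene. Capitals mark E2F motifs (TTTGGCGC, TTTCGCGC, TTTGGCGG, TTTCCCGC or TTTCGCGG on either strand, which overlap each other in Mcm5 and Mcm6) and CCAAT boxes (CCAAT, either strand).
Mcm5 (chr8:75109329-75109508, plus strand): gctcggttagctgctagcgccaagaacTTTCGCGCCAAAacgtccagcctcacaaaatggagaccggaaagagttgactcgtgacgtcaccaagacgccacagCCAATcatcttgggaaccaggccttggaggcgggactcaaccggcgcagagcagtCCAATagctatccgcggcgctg
Mcm6 (chr1:128359706-128359885, minus strand): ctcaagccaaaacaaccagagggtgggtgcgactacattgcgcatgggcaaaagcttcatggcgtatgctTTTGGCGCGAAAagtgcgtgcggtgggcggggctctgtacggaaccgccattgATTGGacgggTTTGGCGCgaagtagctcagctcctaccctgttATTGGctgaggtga
Cdc6 (chr11:98907971-98908150, plus strand): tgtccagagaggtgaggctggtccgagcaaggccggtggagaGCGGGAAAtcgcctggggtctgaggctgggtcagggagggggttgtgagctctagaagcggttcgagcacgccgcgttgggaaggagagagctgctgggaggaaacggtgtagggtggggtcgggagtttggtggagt
Orc1 (chr4:108579274-108579453, plus strand): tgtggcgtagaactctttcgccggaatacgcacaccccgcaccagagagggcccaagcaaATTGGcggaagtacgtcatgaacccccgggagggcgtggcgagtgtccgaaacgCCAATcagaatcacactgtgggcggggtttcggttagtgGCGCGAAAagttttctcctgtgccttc
Rrm2 (chr12:24708074-24708253, plus strand): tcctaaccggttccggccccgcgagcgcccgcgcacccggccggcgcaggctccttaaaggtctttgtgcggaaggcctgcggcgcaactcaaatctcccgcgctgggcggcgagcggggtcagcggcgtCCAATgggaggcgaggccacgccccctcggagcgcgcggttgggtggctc

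RefSeq windows of 250 bases before to 50 after the start were found for 39 of the 47 members. An E2F motif was in the window of 17 of these 39 members (43.6%), against 803 of 27025 genes (2.97%) with a window of the same length. The motif was found in 4 of 5 MCM ring genes, 4 of 6 primase and polymerase genes and 5 of 8 licensing genes, and in 0 of 5 nucleotide supply genes. Of 37 other replication genes with a window (a list given below), 12 held the E2F letters (32.4%), and of 24 genes of mitosis 1 did. The CHR element of mitotic promoters (TTTGAA) was distributed differently, in 7 of 39 members (17.9%), 16 of 24 mitosis genes (66.7%) and 20.2% of all genes, and 4 of the 7 members were helicase activation genes. A CCAAT box was in 59.0% of member genes, 48.6% of other replication genes, 75% of mitosis genes and 41.1% of all genes. For an Sp1 GC box (GGGCGG) the shares were 76.9%, 83.8%, 79.2% and 38.2%. Shares above that of all genes were thus not particular to the members. These matches describe letters and not binding.

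In the mm9 annotation used for the deposited table, Mcm5 lies at chr8:77633427-77652338, Mcm6 at chr1:130228168-130256233, Cdc6 at chr11:98769115-98785254, Orc1 at chr4:108252028-108288633 and Rrm2 at chr12:25393106-25399011. Levels are given in RPKM (reads per kilobase of transcript, scaled to library size), and differences as log2 fold changes on the log2(RPKM + 0.25) scale with a standard error (SE). A gene was called when limma's adjusted p was below 0.05 and the fold change exceeded 0.5 on the log2 scale, up or down. The pseudocount reduces the changes of the lowest genes, such as Orc1 and Cdc6. On their own strand, Cdt1 overlaps the protein-coding Gm20388, Orc5 and Pole overlap pseudogenes (Gm15421 and Gm15791), Mcm7 hosts Mir25, Mir93 and Mir106b, and Orc2, Orc5, Pola1 and Pole overlap small nuclear or nucleolar RNAs, so that part of their reads is uncertain.

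Depth was estimated at 12.2 to 48.7 M reads (M, the prefix mega) in 79 libraries, with a median of 26.6 M. In X28 replicate 2 no value of a single read could be fixed. Alb, which encodes the main plasma protein made by hepatocytes, was at 16100 RPKM or above in every library, and the sum of 8 hepatocyte markers was 30000 to 53800 RPKM in X36 and 34500 to 40100 RPKM in X48. The summed level of 5 T cell markers was 0.842 to 1.78 RPKM in C0, 0.0903 to 0.364 RPKM in X36 and 0.111 to 0.423 RPKM in X48, and that of 4 B cell markers was 0.39 to 3.15, 0.0962 to 0.641 and 0.153 to 0.614 RPKM in the same groups. In C0, X36 and X44 the sum of 6 stellate cell markers was 7.73 to 13.3, 5.21 to 56.3 and 13.4 to 25.5 RPKM, that of 4 erythroid markers 28.2 to 46.6, 6.36 to 16 and 8.31 to 14.3 RPKM, and that of 5 pancreatic acinar markers 11 to 29.2, 3.72 to 4.6 and 3.58 to 6.26 RPKM. T cell, erythroid and acinar sums were thus lower in X36 than in C0 without overlap, and the stellate sum was higher in X44. Macrophage, neutrophil, B cell, endothelial, cholangiocyte and skeletal muscle sums overlapped between C0 and X36. Summed markers in S48 and X48 were 22.1 to 35.5 and 17.6 to 33.6 RPKM for macrophages, 3.07 to 6.63 and 1.82 to 7.79 RPKM for neutrophils, 11 to 11.4 and 7.65 to 10.4 RPKM for endothelial cells, 1.81 to 3.91 and 2.99 to 4.26 RPKM for cholangiocytes, 18 to 26.8 and 6.57 to 11.7 RPKM for erythroid cells, 0.4 to 0.518 and 0.410 to 0.799 RPKM for skeletal muscle and 8.18 to 9.89 and 5.42 to 8.18 RPKM for pancreatic acinar cells. Of the acinar markers, Prss1 was at 0 in every library, and Cpa1, Pnlip and Ctrb1 reached at most 0.0942, 0.0678 and 0.0541 RPKM. Cela1 was at 2.77 to 29.2 RPKM, so the acinar sum is nearly that of Cela1 alone. The stellate sum was 6.05 to 6.82 RPKM in S48 and 11.6 to 40 RPKM in X48. The part of these cell types in the values below was not tested. In whole liver RNA, a change in the number of cells that transcribe a gene and a change in RNA per cell cannot be told apart.

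**Figure D1:**
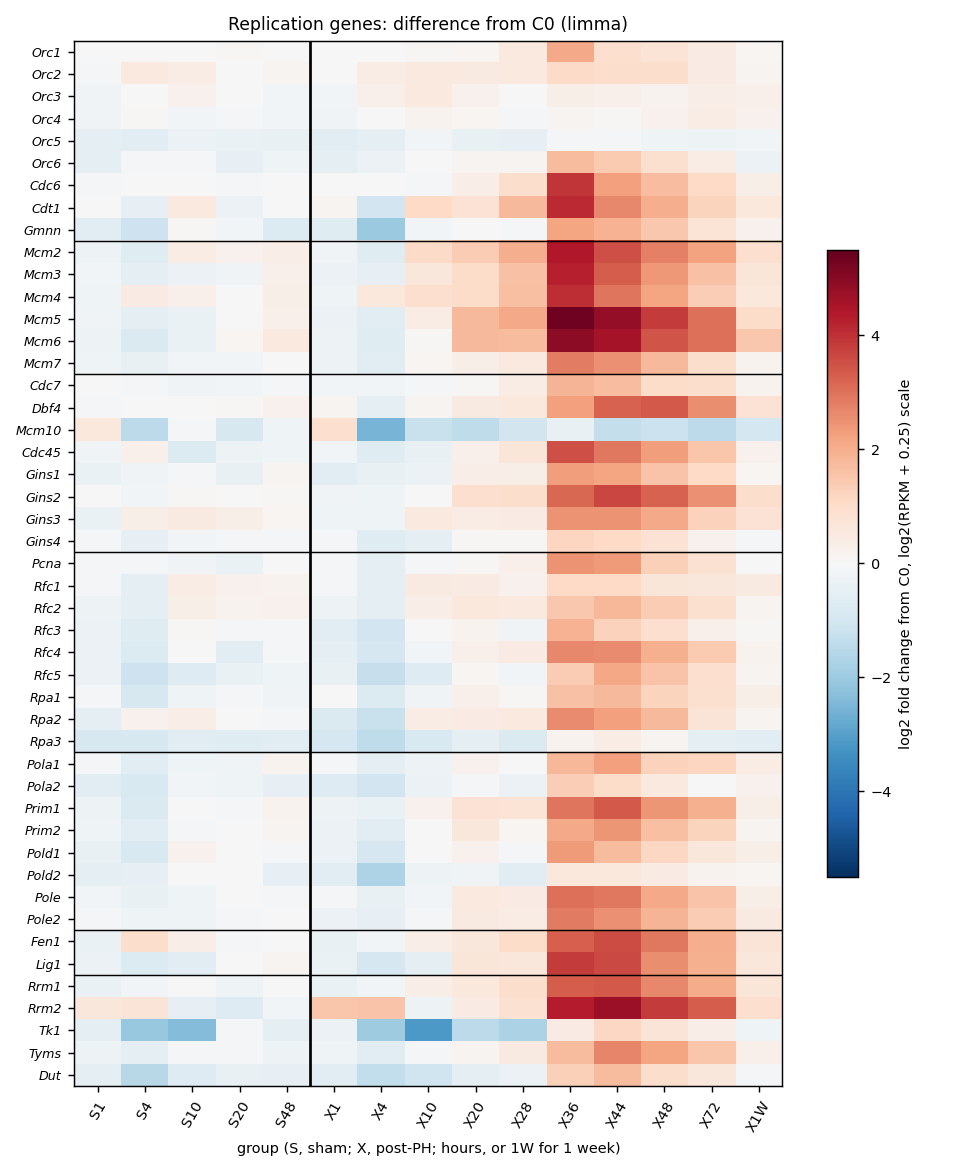
Log2 fold change of each of the 47 replication genes (rows, divided by role) from C0 in the sham (left) and post-PH (right) groups, as fitted by limma. The strongest colour is in X36 and X44, Mcm5 reached 5.35 in X36, and the Orc3, Orc4 and Orc5 rows stay pale.

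The largest step of the course came between 28 and 36 h. From X28 to X36, 43 of 47 members were called higher (median log2 fold change 2.07), beside 15.1% of all genes tested, whose median was 0.14. Against C0, 41 members were higher in X36 (median 2.24, background 25.7%), 42 in X44 (2.25, 30.8%), 41 in X48 (1.58, 30.4%), 34 in X72 (0.98, 26.6%) and 10 in X1W (0.25, 12.4%). The count in X36 against X28 was 44 with X36 replicates 1 to 3 alone and 43 with replicates 4 to 6 alone. In 43 members every X36 library was above every X28 library, a count that was not made over all genes. X28 and X44 come from the first period and X36 from the first and the second.

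The MCM ring had the largest median rise of the role groups in X36 against C0 (log2 fold change 4.35, with 6 of 6 called), followed by Okazaki fragment joining (3.55, 2 of 2), helicase activation (2.26, 7 of 8), primase and polymerases (2.20, 8 of 8), licensing (1.74, 6 of 9), nucleotide supply (1.72, 4 of 5) and the clamp group (1.60, 8 of 9). Mcm5 was measured at 0.147 to 1.19 RPKM in C0 (median 0.302), 4.16, 3.53 and 0.904 RPKM in X28, 10.3 to 37.3 RPKM in X36 (median 29.6) and 19.2, 18.5 and 15.8 RPKM in X44. Mcm5 had a log2 fold change of 5.35 ± 0.28 (SE, adjusted p = 2.52e-26) in X36 against C0. X36 replicate 2 was the lowest of its group and still lay above all C0 and X28 libraries. The mean levels of Mcm2 to Mcm7 lay between 0.432 RPKM (Mcm5) and 2.40 RPKM (Mcm7) in C0, a ratio of 5.57, and between 17.9 RPKM (Mcm2) and 31.5 RPKM (Mcm6) in X36, a ratio of 1.76. The ring holds 1 copy of each subunit, and their transcript levels were further apart at rest than at 36 h.

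Mcm2 followed the same course. For Mcm2 the libraries gave 0.318 to 0.99 RPKM in C0 (median 0.534), 9.05 to 23.9 RPKM in X36 (median 18.2) and 10.8, 9.26 and 8.49 RPKM in X44. Mcm2 differed in X36 against C0 by a log2 fold change of 4.40 ± 0.21 (SE, adjusted p = 3.58e-28). All X36 and X44 libraries were above all C0 libraries. Mcm6 reached the highest ring level, and Mcm7, which was the highest at rest, had the smallest rise of the ring. Limma gave Mcm7 in X36 against C0 a log2 fold change of 2.80 ± 0.15 (SE, adjusted p = 4.9e-26).

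Of the licensing genes, Cdc6 and Cdt1, the loaders of the helicase, changed most on the log2(RPKM + 0.25) scale. Orc3, Orc4 and Orc5 changed least. The pseudocount reduces the change of Orc1 (0 to 0.01 RPKM in C0, 0.301 to 1.24 RPKM in X36) more than theirs. The level of Cdc6 was 0.00897 to 0.0714 RPKM in C0 (median 0.0222), 0.48, 0.411 and 0.0955 RPKM in X28, 1.34 to 5.76 RPKM in X36 (median 4.83) and 1.24, 0.87 and 1.17 RPKM in X44. In X36 against C0, Cdc6 had a log2 fold change of 3.92 ± 0.16 (SE, adjusted p = 1.68e-31). The 3 X44 libraries were below every X36 library, replicate 2 included. Cdt1 was measured at 0.288 to 1.18 RPKM in C0 (median 0.554), 7.59 to 20.3 RPKM in X36 (median 15.1) and 5.46, 4.12 and 5.57 RPKM in X44. Cdt1 had a log2 fold change of 4.11 ± 0.21 (SE, adjusted p = 1.41e-26) in X36 against C0. Here too the X44 libraries were all below the X36 libraries.

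Geminin (Gmnn), the inhibitor of Cdt1 that blocks a second round of licensing, was well expressed at rest. For Gmnn the libraries gave 1.86 to 3.66 RPKM in C0 (median 2.7), 9.26 to 15.7 RPKM in X36 (median 12.5), 12.9, 9.31 and 9.22 RPKM in X44 and 6.13, 7.67, 7.15, 9.17 and 8.08 RPKM in X48. Gmnn differed in X36 against C0 by a log2 fold change of 2.18 ± 0.13 (SE, adjusted p = 3.21e-23). X36 and X44 overlapped for Gmnn, unlike Cdt1. The level of Orc1 was 0 to 0.01 RPKM in C0 (median 0) and 0.301 to 1.24 RPKM in X36 (median 0.847). Orc1, the cell-cycle-regulated subunit of the origin recognition complex, was thus near the limit of detection at rest, with no reads in 7 of 9 C0 libraries, and it was present in all 6 X36 libraries. Orc2 to Orc5 had mean levels of 0.913 to 4.47 RPKM in C0 and 2.05 to 4.27 RPKM in X36. Orc4 and Orc5 were called higher at no post-PH time against C0, and Orc3 in X10 only. Limma gave Orc5 in X36 against C0 a log2 fold change of −0.07 ± 0.10 (SE, adjusted p = 0.532). Orc2 and Orc6 were called higher in X36, with log2 fold changes of 1.06 and 1.74.

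Of the 8 helicase activation genes, 7 were called higher in X36, and Mcm10 was not. Cdc45 was measured at 0.274 to 0.727 RPKM in C0 (median 0.4), 3.88 to 11.1 RPKM in X36 (median 8.53) and 6.48, 4.33 and 3.98 RPKM in X44. In X36 against C0, Cdc45 had a log2 fold change of 3.56 ± 0.16 (SE, adjusted p = 4.98e-29). Cdc45, which with GINS completes the active helicase, was above all C0 libraries in every X36 library. For Cdc7 the libraries gave 0.015 to 0.0902 RPKM in C0 (median 0.0451) and 0.568 to 1.27 RPKM in X36 (median 0.869). Cdc7 had a log2 fold change of 1.88 ± 0.11 (SE, adjusted p = 9.77e-25) in X36 against C0. Cdc7 encodes the kinase subunit. Its partner Dbf4 was first called in X28 and Cdc7 in X36, but these calls do not give an order of rise. In X28 Cdc7 was at 0.111, 0.263 and 0.0705 RPKM and Dbf4 at 0.775, 0.685 and 0.253 RPKM. For both genes replicate 3 lay within the C0 range and the other X28 libraries above it, and the pseudocount reduces the change of Cdc7 more. Dbf4 was the only member with its highest mean in X48. The RPKM of Dbf4 was 0.167 to 0.433 in C0, 1.75 to 2.64 in X36, 3.90 to 5.64 in X44 and 4.05 to 7.28 in X48.

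The 4 GINS subunits were far apart in level. Their group means ran from 0.0838 RPKM (Gins2) to 6.42 RPKM (Gins4) in C0, a ratio of 76.6, and from 2.17 RPKM (Gins3) to 14.9 RPKM (Gins4) in X36, a ratio of 6.88. The level of Gins1 was 1.19 to 1.71 RPKM in C0 (median 1.47) and 4.18 to 10.8 RPKM in X36 (median 8.6). Gins1 differed in X36 against C0 by a log2 fold change of 2.28 ± 0.14 (SE, adjusted p = 2.43e-22). Gins4 had the smallest change of the 4 against C0 at 36 h (1.18) and Gins2 the largest (3.16).

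Mcm10, a loading factor for polymerase alpha, was the only member called lower in X48 against both C0 and S48. Its level was 8.8, 3.18 and 3.28 RPKM in S48 and 1.46 to 3.52 RPKM in X48. The groups thus overlapped, and S48 replicate 1 lay far above the other S48 libraries. Mcm10 was at 3.32 to 9.04 RPKM in C0 and 2.83 to 4.92 RPKM in X36. Limma gave Mcm10 in X4 against C0 a log2 fold change of −2.58 ± 0.30 (SE, adjusted p = 6.21e-11), and in X48 against S48 it was −0.93 ± 0.33 (SE, adjusted p = 0.0174). Mcm10 was already lower in S4 (called against C0), so that its fall was not limited to PH. In the mm9 annotation no other gene overlaps Mcm10 on its strand.

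Of the clamp, clamp loader and single-strand binding genes, Pcna had the highest level in X36. Pcna was measured at 6.74 to 8.05 RPKM in C0 (median 7.49), 11.5, 10.4 and 6.05 RPKM in X28, 24.7 to 61.5 RPKM in X36 (median 42.7) and 41.9, 44.4 and 32 RPKM in X44. In X36 against C0, Pcna had a log2 fold change of 2.48 ± 0.13 (SE, adjusted p = 1.46e-25). X28 replicates 1 and 2 were above all C0 libraries and replicate 3 was below them. For Rfc4 the libraries gave 1.22 to 1.66 RPKM in C0 (median 1.46) and 5.08 to 14.8 RPKM in X36 (median 11.5). Rfc4 had a log2 fold change of 2.63 ± 0.17 (SE, adjusted p = 8.97e-22) in X36 against C0. Rfc4 is a small subunit of the loader that opens the clamp, and all its X36 libraries were above C0, as they were for Rfc2, at a mean of 8.81 RPKM in C0 and 25.6 RPKM in X36.

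The trimeric single-strand binding protein was less uniform. The level of Rpa2 was 1.01 to 2.05 RPKM in C0 (median 1.25) and 4.5 to 12.3 RPKM in X36 (median 10.5). Rpa2 differed in X36 against C0 by a log2 fold change of 2.60 ± 0.17 (SE, adjusted p = 8.14e-22). Rpa1 rose by 1.60 and Rpa3, the smallest subunit, was not called (log2 fold change 0.18, adjusted p = 0.252). The level of Rpa3 was 2.58 to 4.43 RPKM in C0, 3.01 to 5.00 RPKM in X36 and 1.69 to 2.44 RPKM in S48, so that it was called higher against S48 (0.80 in X48) and not against C0.

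All 8 primase and polymerase genes were called higher in X36. Prim1, Prim2, Pole and Pole2 were also called in X20, whereas in X28 1 of the 8 was called higher and 1 lower. Pole was at 0.476, 0.563 and 0.538 RPKM in X20 replicates 1 to 3 and 0.296, 0.121 and 0.118 RPKM in replicates 4 to 6. Pola1 was measured at 0.143 to 0.459 RPKM in C0 (median 0.291), 1.04 to 2.4 RPKM in X36 (median 1.7) and 3.01, 2.63 and 1.69 RPKM in X44. Limma gave Pola1 in X36 against C0 a log2 fold change of 1.81 ± 0.14 (SE, adjusted p = 1.4e-18). Pola1, the catalytic subunit of polymerase alpha, overlapped between X36 and X44. For Pole the libraries gave 0.0734 to 0.284 RPKM in C0 (median 0.142) and 1.14 to 4.46 RPKM in X36 (median 3.42). In X36 against C0, Pole had a log2 fold change of 3.05 ± 0.15 (SE, adjusted p = 4.31e-27). Pole, which copies the leading strand, was the lowest member of its role group at rest, and Pold2, an accessory subunit of polymerase delta, the highest. Pold2 also had the smallest rise (0.58), and the ratio between the highest and the lowest mean of these 8 genes was 29.7 in C0 and 3.84 in X36.

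Both genes that finish Okazaki fragments were called from X20 on. The level of Fen1 was 0.817 to 1.92 RPKM in C0 (median 1), 7.13 to 17.2 RPKM in X36 (median 14.5) and 20.9, 14.6 and 13.6 RPKM in X44. Fen1 had a log2 fold change of 3.27 ± 0.18 (SE, adjusted p = 1.08e-24) in X36 against C0. The flap endonuclease Fen1 was higher in all X36 and X44 libraries than in any C0 library. Lig1 was measured at 0.326 to 0.666 RPKM in C0 (median 0.395) and 5.43 to 13.3 RPKM in X36 (median 10.2). Lig1 differed in X36 against C0 by a log2 fold change of 3.83 ± 0.18 (SE, adjusted p = 1.16e-28). Lig1, the ligase that seals the nicks, was below 0.7 RPKM in every C0 library.

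The 5 nucleotide supply genes all had their highest mean in X44, but only Tk1 and Tyms were called higher in X44 than in X36. The log2 fold changes of Rrm1, Rrm2 and Dut were 0.066 ± 0.213, 0.403 ± 0.39 and 0.437 ± 0.189 (SE), not called. Rrm1 was highest in X36 by group medians and after all libraries were scaled to one median. For Rrm2 the libraries gave 0.635 to 2.78 RPKM in C0 (median 1.46), 17.3 to 60.5 RPKM in X36 (median 32.9) and 66, 44.4 and 30.1 RPKM in X44. Limma gave Rrm2 in X44 against C0 a log2 fold change of 4.72 ± 0.37 (SE, adjusted p = 7.78e-18). Rrm2 encodes the small subunit of ribonucleotide reductase, and its 66.0 RPKM in X44 replicate 1 was the highest level of any member in an X36 or X44 library. Rrm1, the large subunit, was less variable at rest (1.63 to 2.60 RPKM in C0) and was 18 to 30.4 RPKM in X44.

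Thymidylate synthase (Tyms), which makes dTMP, and Dut, which removes dUTP, had smaller changes. The level of Tyms was 0.701 to 1.05 RPKM in C0 (median 0.794), 2.48 to 5.11 RPKM in X36 (median 2.97) and 8.39, 7.1 and 5.41 RPKM in X44. In X44 against C0, Tyms had a log2 fold change of 2.70 ± 0.15 (SE, adjusted p = 2.29e-24). The X44 libraries of Tyms were all above the X36 libraries. Dut was measured at 2.09 to 3.2 RPKM in C0 (median 2.82) and 11.9, 9.31 and 8.14 RPKM in X44. Dut had a log2 fold change of 1.75 ± 0.18 (SE, adjusted p = 3.71e-13) in X44 against C0. For Tk1 the libraries gave 2.68 to 4.24 RPKM in C0 (median 3.21), 3.18 to 5.98 RPKM in X36 (median 4.44) and 8.94, 7.98 and 6.07 RPKM in X44. Tk1 differed in X44 against C0 by a log2 fold change of 1.15 ± 0.22 (SE, adjusted p = 7.01e-06). Tk1, the thymidine kinase of the salvage pathway, was already well expressed at rest, and in X36 its difference from C0 (0.44, adjusted p = 0.0243) was below the fold threshold.

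**Figure D2:**
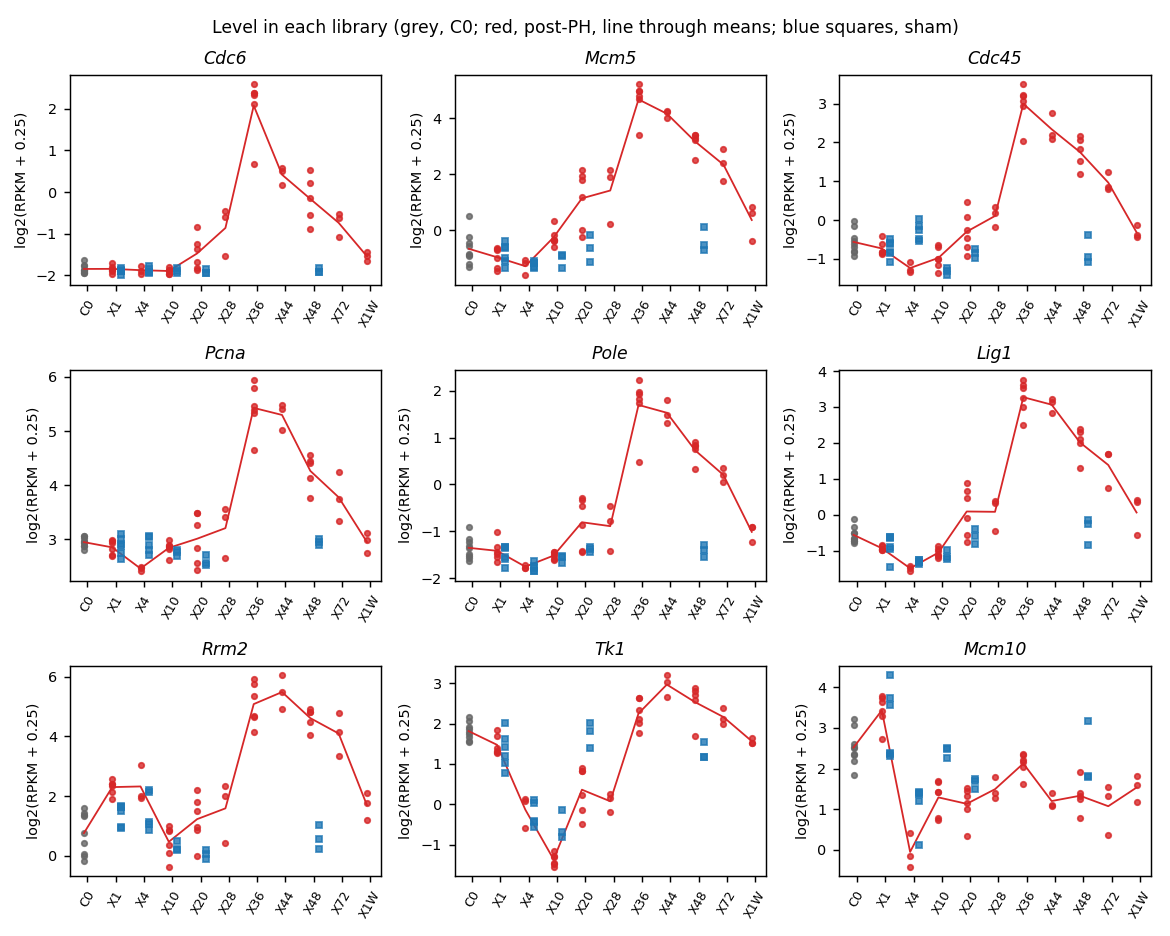
Level of 9 replication genes in each library on the log2(RPKM + 0.25) scale, for C0 (grey), post-PH (red, line through the group means) and sham (blue squares) at the same hours. 8 of the 9 panels peak in X36 or X44, whereas Mcm10 is highest in X1, and Tk1 falls to its lowest values in X10.

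Between 36 and 44 h some members fell and others rose. From X36 to X44, 5 members were called higher (background 6.48%) and 10 lower (background 3.05%), with a median of −0.09. The 10 lower genes were Orc1, Cdc6, Cdt1, Mcm2, Mcm3, Mcm4, Mcm10, Cdc45, Rfc3 and Pold1, and the 5 higher genes were Dbf4, Gins2, Rfc5, Tk1 and Tyms. Limma gave Cdc6 in X44 against X36 a log2 fold change of −1.66 ± 0.22 (SE, adjusted p = 1.36e-08). In X44 against X36, Tyms had a log2 fold change of 0.98 ± 0.16 (SE, adjusted p = 5.07e-06). Dbf4 had a log2 fold change of 1.02 ± 0.17 (SE, adjusted p = 7.33e-06) in X44 against X36. The lower genes thus included both helicase loaders and 3 of 6 ring subunits, and the higher ones 2 of 5 nucleotide supply genes and the regulatory subunit of the Cdc7 kinase. The lower count was 4 with X36 replicates 1 to 3 alone and 10 with replicates 4 to 6 alone, 5 without X36 replicate 3 or 6 and 4 without X44 replicate 2, and a fit of X36 and X44 alone called 3 lower and 1 higher.

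**Figure D3:**
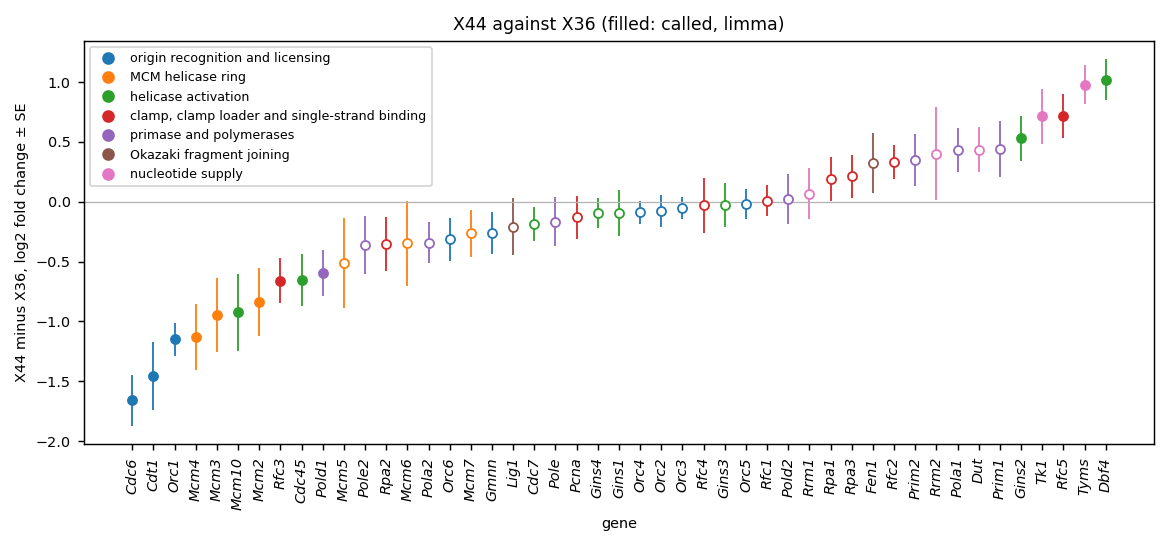
Log2 fold change of X44 against X36 with its SE for the 47 members, in ascending order and coloured by role, with called genes filled. Cdc6 (−1.66), Cdt1 (−1.46) and Orc1 (−1.15) stand at the low end and Tyms (0.98) and Dbf4 (1.02) at the high end.

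As a description without a test, the highest group mean among X20, X28, X36, X44, X48 and X72 was in X36 for 28 members, in X44 for 16, in X48 for 1 and in X72 for 2 (Orc3 and Orc4). Some of these were near ties. The X44 to X36 difference was 0.008 for Rfc1, 0.022 for Pold2 and 0.066 for Rrm1, which were highest in X36 after scaling to one median. On the X36 side it was −0.018 for Orc5, −0.026 for Gins3 and −0.031 for Rfc4. All 6 MCM ring genes and 7 of 9 licensing genes were at their highest in X36, and the polymerase and primase genes were divided 4 and 4. Of 17 members with an E2F motif in the promoter, 13 were highest in X36 and 2 in X44, and of the 22 with a window and no motif, 10 and 11. The median X44 to X36 difference was −0.345 for the former and 0.0153 for the latter.

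**Figure D4:**
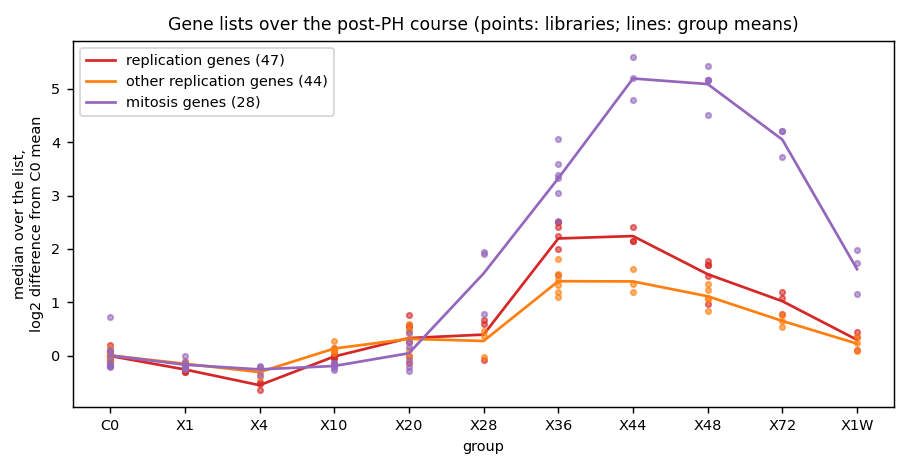
Median log2 difference from the C0 mean over 47 replication genes, 44 other replication genes and 28 mitosis genes, for each library (points) and group mean (lines) of the post-PH course. The replication lists level off from X36 to X44 whereas the mitosis list goes on rising and is still above the other two in X1W.

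A list of 28 genes of mitosis (cyclins, mitotic kinases, spindle and kinetochore genes) is given beside the members. In X28 against X20, 25 of 28 mitosis genes were called higher (median 1.47) beside 2 of 47 members, Cdc6 and Cdt1 (median 0.02, background 3.22%). The members' count was 9 without X28 replicate 3, 0 with X20 replicates 1 to 3 alone and 11 with X20 replicates 4 to 6 alone. From X36 to X44, 27 of 28 mitosis genes rose (median 1.83). At 1 week 27 of 28 were still higher than in C0 (median 1.59), beside the 10 members named below. The largest mitosis gene in X48 against S48 was Cdc20, an activator of the anaphase-promoting complex, at 7.04, and the smallest was Pttg1, securin, at 0.12. The difference between the lists was not tested.

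Among 44 other replication genes in the table, 43 passed the filter, and 36 of these were called higher in X36 against C0 (median 1.43) and 32 of 43 in X48 against S48 (median 1.10). Uhrf1, which guides maintenance methylation at the fork, was the largest in X36 at 5.66, and Tk2, the mitochondrial thymidine kinase, the smallest at −0.42. Of the 8 E2F genes, 7 were called higher in X36, from 0.65 for E2f4 to 3.19 for E2f1, an activator of S-phase genes, whose level was 0.443 to 0.852 RPKM in C0 and 4.30 to 12.3 RPKM in X36.

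At 48 h the replication genes were higher after PH than after sham surgery. In X48 against S48, 42 of 47 members were called higher (median 1.71), beside 24.5% of all genes (median 0.27). In 45 members every X48 library was above every S48 library, a count that was not made over all genes. The exceptions to the call were Orc3, Orc4, Orc5, Rfc1 and, in the opposite direction, Mcm10. The level of Mcm5 was 0.365, 0.446 and 0.827 RPKM in S48 and 5.47, 10.4, 9.08, 9.59 and 10.5 RPKM in X48. Mcm5 differed in X48 against S48 by a log2 fold change of 3.55 ± 0.39 (SE, adjusted p = 9.74e-12). X48 replicate 1 was the lowest X48 library and lay above the 3 S48 libraries.

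At 48 h Rrm2 had the largest difference from sham on the log2(RPKM + 0.25) scale. Rrm2 was measured at 0.922, 1.22 and 1.8 RPKM in S48 and 16.2, 30, 21.9, 27.7 and 28.1 RPKM in X48. Limma gave Rrm2 in X48 against S48 a log2 fold change of 4.00 ± 0.40 (SE, adjusted p = 5.81e-13). On this scale Mcm5 came next, followed by Gins2 at 3.20 and Dbf4 at 3.17. Orc1 at 0.75 and Rpa3 at 0.80 were among the smallest called. The order depends on the pseudocount, which reduces the changes of the lowest genes. Orc1 was at 0 to 0.0177 RPKM in S48 and 0.0715 to 0.301 RPKM in X48. Gins2 was at 0.0567 to 0.112 RPKM in S48 and 2.12 to 3.33 RPKM in X48. For Pcna the libraries gave 7.15, 7.46 and 7.8 RPKM in S48 and 13.3, 23.4, 17.4, 20.9 and 21.6 RPKM in X48. In X48 against S48, Pcna had a log2 fold change of 1.32 ± 0.19 (SE, adjusted p = 2.69e-08). The groups did not overlap for Pcna.

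Against C0, S48 had 0 members called higher by limma (background 3.83%, 0 at an unadjusted p under 0.05) and 2 lower, Gmnn and Rpa3 (background 5.05%). Scaling all libraries to one median moved the median of all genes in X48 against S48 from 0.274 to −0.0739 and that of the members to 1.33. The members called higher were 38 under that scaling.

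At 20 h the difference between PH and sham rested on X20 replicates 1 to 3. In X20 against S20, 17 members were called higher (median 0.43, background 4.49%). With X20 replicates 1 to 3 alone the count was 28, and with replicates 4 to 6 alone 0. A fit of X20 and S20 alone called 2, and the count was 9 without S20 replicate 1 or without S20 replicate 3. S20 comes from the second period alone and X20 from the first and the second, so period and surgery are mixed in this comparison, whereas X48 and S48 both come from the first. In 39 members the X20 replicates 1 to 3 all lay above the 3 S20 libraries, and in 9 members replicates 4 to 6 did. Neither count was made over all genes, so no background is given for them. The 6 values of Mcm5 show this split. They were 4.21, 3.26, 3.59, 2.05, 0.746 and 0.587 RPKM in replicates 1 to 6, against 0.39, 0.635 and 0.205 RPKM in S20. Mcm5 had a log2 fold change of 1.79 ± 0.37 (SE, adjusted p = 0.000761) in X20 against S20. Against C0, 15 members were called higher in X20 (background 16.5%), 8 after all libraries were scaled to one median and 5 with replicates 4 to 6 alone of both groups.

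**Figure D5:**
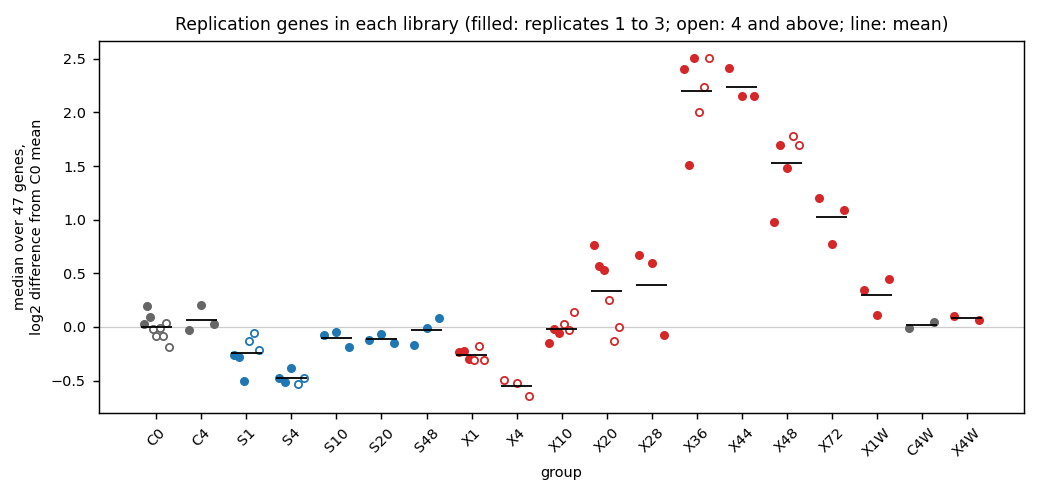
Median over the 47 members of the log2 difference from the C0 mean, for each library by group, with replicates 1 to 3 filled and higher numbers open and a line at the group mean. X20 replicates 1 to 3 lie at 0.535 to 0.764 and replicates 4 to 6 at −0.136 to 0.253, and the X36 libraries lie at 1.51 to 2.51.

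The same plot shows X28 replicate 3 at −0.0797 and the other X28 libraries at 0.593 and 0.673. In X28 against C0, 19 members were called higher (background 13.6%), 29 without replicate 3, 10 without replicate 1 and 8 with a pseudocount of 1. Cdc6 and Orc1 were first called in X28. The level of Orc1 was 0.167, 0.175 and 0.0268 RPKM in X28, replicate 3 being the lowest. The PH-sham difference was larger at 48 h than at 20 h in 31 members (interaction term, background 12.5%), 21 with X20 replicates 1 to 3 and 40 with replicates 4 to 6. S20 against C0 had 0 members called higher (background 7.85%, 2 at an unadjusted p under 0.05) and 3 lower, Mcm10, Rfc4 and Rpa3 (background 4.29%). In X44 against X20, which share ZT22, 42 members were higher (background 12.9%), from 41 to 44 with either set of X20 replicates.

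During the first hours many members fell after both operations, and few rose. In X4 against C0, 25 members were called lower (median −0.55, background 26.9%) and 1 higher, Rrm2 (background 11.2%), and in S4 against C0, 20 were lower (median −0.47, background 22.7%) and 3 higher, Orc2, Fen1 and Rrm2 (background 11.7%). Both shares of members were above the background, and with a pseudocount of 1 the counts were 13 and 9. The contrast also spans ZT2 and ZT6, and the C4 libraries, unoperated at ZT6, give the level without surgery, against which X4 and S4 were not tested. Gmnn was measured at 4.1, 3.67 and 4.84 RPKM in C4, 0.752, 0.737, 1.09, 1.42 and 1.23 RPKM in S4 and 0.338, 0.433 and 0.565 RPKM in X4. The 3 groups did not overlap and Gmnn was lowest after PH. Gmnn differed in X4 against S4 by a log2 fold change of −0.88 ± 0.18 (SE, adjusted p = 0.000331).

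In all, 8 members were lower in X4 than in S4 (background 5.48%), namely Gmnn, Mcm10, Cdc45, Gins3, Rpa2, Rpa3, Pold2 and Fen1, and 4 with S4 replicates 4 and 5 alone. Fen1 was called higher in S4 against C0 and was not called in X4. For Fen1 the libraries gave 3.28, 2.58, 3.32, 1.79 and 1.63 RPKM in S4 and 1.29, 0.698 and 0.943 RPKM in X4, with S4 replicates 4 and 5 nearer to X4. At 1 h, X1 had 2 members above C0, Mcm10 and Rrm2 (background 4.85%), and 11 below (background 8.65%, 1 with a pseudocount of 1), whereas X1 against S1 had 0 in either direction by limma (background 0.624% higher and 0.026% lower, with 1 and 0 members at an unadjusted p under 0.05).

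Rrm2 was also higher in the first hours. The level of Rrm2 was 3.54 to 5.68 RPKM in X1 (median 4.98), 3.73, 8.02 and 3.58 RPKM in X4 and 0.533 to 1.75 RPKM in X10 (median 1.3). Limma gave Rrm2 in X1 against C0 a log2 fold change of 1.54 ± 0.29 (SE, adjusted p = 2.25e-05). The X1 libraries were above all C0 libraries, and the X10 libraries overlapped with C0. Rrm2 was measured at 1.97, 1.83, 1.56, 4.37 and 4.15 RPKM in S4, with replicates 4 and 5 as the high ones. For Rrm2 the libraries gave 1.66 to 2.93 RPKM in S1 (median 2.71), and Rrm2 was not called in X1 against S1.

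At 10 h a few licensing and MCM genes were higher and Tk1 was at its lowest. In X10 against C0, 7 members were higher (Orc2, Orc3, Cdt1, Mcm2, Mcm3, Mcm4 and Gins3, background 21.2%) and 5 lower (Mcm10, Rfc5, Rpa3, Tk1 and Dut, background 15.2%). Neither share of the 47 members was above its background. The level of Tk1 was 0.37, 0.319 and 0.651 RPKM in S10, 0.0936 to 0.198 RPKM in X10 (median 0.136) and 0.466 to 1.63 RPKM in X20 (median 1.22). In X10 against C0, Tk1 had a log2 fold change of −3.18 ± 0.17 (SE, adjusted p = 8.35e-25). All 6 X10 libraries were below all S10 libraries, which in turn were below C0. Tk1 had a log2 fold change of −0.81 ± 0.23 (SE, adjusted p = 0.013) in X10 against S10. X10 against S10 had 1 member higher, Mcm3 (background 3.4%), and 2 lower, Mcm10 and Tk1 (background 3.62%), and 0 higher with X10 replicates 4 to 6 alone. S10 against C0 had 6 lower, Cdc45, Rfc5, Rpa3, Lig1, Tk1 and Dut (background 11.2%), a share near the background. It had 1 higher, a helicase activation gene, beside 2749 of all 15396 genes, a share below the background.

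Members were called lower at each step measured after X44. No livers between X48 and X72 were analysed, so the course there was not seen. From X44 to X48, 5 members were called lower (Cdc7, Pcna, Pola1, Lig1 and Dut, background 0.24%), from X48 to X72 15 (background 3.73%) and from X72 to X1W 28 (background 12.2%). The X72 count was 25 without X48 replicate 1 and 7 without X72 replicate 2, and the X48 count was 1 without X44 replicate 1 or 2 or without X48 replicate 1. Fits of the compared groups alone called 0, 4 and 18. At 1 week 10 members were still above C0, namely Mcm2, Mcm5, Mcm6, Dbf4, Gins2, Gins3, Fen1, Lig1, Rrm1 and Rrm2, and 4 without X1W replicate 3 (background 12.4%). Mcm5 was measured at 1.54, 0.525 and 1.29 RPKM in X1W, and Lig1 was at 1.03, 0.426 and 1.07 RPKM in X1W, replicate 2 being the lowest for both genes.

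In X4W against C4W, with 2 livers in each group, 0 members were called in either direction by limma (background 0.0325% each) and 0 had an unadjusted p under 0.05. For Mcm5 the libraries gave 0.752 and 0.289 RPKM in X4W and 0.458 and 0.596 RPKM in C4W. The groups overlapped for Mcm5. The level of Pcna was 6.13 and 6.58 RPKM in X4W and 6.52 and 6.87 RPKM in C4W, with overlap as well.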

How the data were processed

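RNA-Seq of poly(A) RNA from mouse liver was analysed from 1 deposited table of log2 RPKM values per Ensembl 67 gene. The authors removed adapters, aligned single-end strand-specific reads to mm9 with TopHat 2.0.13 and Bowtie2, counted reads per gene with featureCounts (a read with several positions as 1 divided by their number) and took log2 of the RPKM. SAMtools 0.1.19 is also named. Of 87 labelled samples, 7 without a matching column were not analysed here, and 4 of 84 columns matched no sample and were not used. Values listed at −14.29 stand for no reads. Groups were taken from the labels.

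The log2(RPKM + 0.25) values of 15396 genes above −1.5 log2 RPKM in at least 1 library were fitted with limma 3.58.1 (R 4.3.3) over 19 groups with a mean-variance trend, and p-values were adjusted over all genes (Benjamini-Hochberg). The study tested read counts with edgeR, which a log2 table does not allow. Adjusted p-values in the report are two-sided and come from limma. The fit was tested on simulated data. Depth was estimated from the smallest steps between low values. The alternatives were another pseudocount, filter, scaling, fold threshold, fit of the compared groups alone, a replicate block, leaving out each library, and replicate subsets. The subsets of X20, X36, X10 and S4 were added after the data were seen.

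The 47 members, the comparison lists and the cell type markers were chosen with earlier results of these data known. Levels in every library are given for 20 members chosen by role. Other members are named where their change is the largest or smallest of their role or goes against most, and genes of other lists by the largest and smallest change. Promoter windows are RefSeq GRCm38.p6 sequences matched by symbol. Coordinates of genes are mm9 and were not converted. Plots were drawn with matplotlib 3.10.9 (Python 3.11.15).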

Additional observations from a re-analysis of the deposited data

Results flagged for a closer look

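In 9 of 80 groups of values, the lowest library lay far from the others of its group, a gap that chance gives in about 1 group in 20. X36 replicate 2 was that library for Cdc6 (1.34 RPKM), Mcm5 (10.3 RPKM), Gins1 (4.18 RPKM), Rpa2 (4.5 RPKM) and Pole (1.14 RPKM). X48 replicate 1 was that library for Mcm5 (5.47 RPKM), Pole (1.01 RPKM), Tk1 (2.96 RPKM) and Tyms (2.99 RPKM). The members' medians in these libraries were 1.51 and 0.98 above C0 on the log2 scale, the lowest of their groups.

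The difference between PH and sham was larger at 48 h than at 20 h in 31 members by the interaction term of the limma fit. It was led by Rrm2 (2.83), Dbf4 (2.77) and Tk1 (2.61), and Tk1 was lower in X20 than in S20.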

How the results depend on the processing

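Counts of members called that moved by more than 1.5 times are given here, with the reported count in parentheses, and the cause was not tested. A pseudocount of 0.05 RPKM gave 3 for higher in X4 against C0 (1), 5 for higher in S4 against C0 (3), 8 for lower in X10 against C0 (5), 3 for higher in X44 against X36 (5) and 1 for lower in X48 against X44 (5). A pseudocount of 1 RPKM gave 1 for lower in X1 against C0 (11), 13 for lower in X4 against C0 (25), 2 for lower in S10 against C0 (6), 1 for higher in S4 against C0 (3), 9 for lower in S4 against C0 (20), 3 for higher in X10 against C0 (7), 7 for higher in X20 against C0 (15), 8 for higher in X28 against C0 (19), 3 for higher in X1W against C0 (10), 3 for lower in X4 against S4 (8), 0 for higher in X10 against S10 (1), 1 for lower in X10 against S10 (2), 10 for higher in X20 against S20 (17), 1 for higher in X28 against X20 (2) and 10 for lower in X48 against X44 (5). Without a filter on low values the count was 0 for higher in X10 against S10 (1). A filter of above 0 log2 RPKM in at least 3 libraries gave 2 for higher in X4 against C0 (1) and 2 for lower in X48 against X44 (5). Scaling all libraries to one median gave 3 for higher in X4 against C0 (1), 3 for higher in X10 against C0 (7), 9 for lower in X10 against C0 (5), 8 for higher in X20 against C0 (15), 6 for higher in X1W against C0 (10), 7 for lower in S20 against C0 (3), 6 for higher in X28 against X20 (2), 3 for higher in X44 against X36 (5) and 1 for members peaking in X72 (2). Fitting only the groups compared gave 2 for higher in X4 against C0 (1), 2 for higher in X10 against S10 (1), 2 for higher in X20 against S20 (17), 0 for higher in X28 against X20 (2), 1 for higher in X44 against X36 (5), 3 for lower in X44 against X36 (10), 0 for lower in X48 against X44 (5), 4 for lower in X72 against X48 (15) and 18 for lower in X1W against X72 (28). Dropping the fold threshold gave 3 for higher in X4 against C0 (1), 12 for higher in X10 against C0 (7), 10 for lower in X10 against C0 (5), 23 for higher in X20 against C0 (15), 3 for higher in X10 against S10 (1), 5 for lower in S20 against C0 (3) and 4 for lower in S48 against C0 (2). Replicates 1 to 3 alone of C0, X1, X10, X20 and X36 were fitted with other groups whole and without X4. This gave 1 for higher in X1 against C0 (2) and 2 for higher in X10 against C0 (7). It also gave 10 for lower in X10 against C0 (5) and 4 for higher in X1W against C0 (10). The count was 4 for lower in S48 against C0 (2). Replicates 1 to 3 alone of X20 and X36 gave 28 for higher in X20 against S20 (17), 0 for higher in X28 against X20 (2) and 4 for lower in X44 against X36 (10). Replicates 4 to 6 alone of C0, X1, X4, X10, X20 and X36 gave 0 for higher in X1 against C0 (2), 5 for lower in X1 against C0 (11), 1 for higher in S4 against C0 (3), 5 for higher in X20 against C0 (15) and 0 for lower in S48 against C0 (2). Replicates 4 to 6 alone of X20 and X36 gave 0 for higher in X20 against S20 (17) and 11 for higher in X28 against X20 (2). Replicates 4 to 6 alone of X10 gave 0 for higher in X10 against S10 (1) and 1 for lower in X10 against S10 (2). Replicates 4 and 5 alone of S4 gave 1 for higher in S4 against C0 (3) and 4 for lower in X4 against S4 (8). By group medians the count was 1 for members peaking in X72 (2). Leaving out each library in turn gave 0 to 1 for higher in X10 against S10, 1 to 2 for lower in X10 against S10, 9 to 24 for higher in X20 against S20, 0 to 5 for lower in S20 against C0, 1 to 3 for lower in S48 against C0, 0 to 9 for higher in X28 against X20, 10 to 29 for higher in X28 against C0, 2 to 6 for higher in X44 against X36, 4 to 11 for lower in X44 against X36, 1 to 6 for lower in X48 against X44, 7 to 25 for lower in X72 against X48 and 4 to 14 for higher in X1W against C0. A replicate block gave 1 for higher in S4 against C0 (3), 5 for higher in X1W against C0 (10) and 3 for lower in X48 against X44 (5) and changed no other count by that much. Replicate numbers do not pair the livers, since correlations of deviations between same-numbered libraries ran from −0.118 to 0.273. Directions were checked only for members called in X48 against S48, X36 against X28, X44 against X36 and X20 against S20. None of these was reversed among the alternatives. The counts for X36, X44, X48 and X72 against C0, X36 against X28, X44 against X20 and X48 against S48 stayed within 1.5 times under all alternatives run. The table holds no read counts, so a count model was not run, and the lowest levels rest on few reads. X28 replicate 2 has no depth estimate.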
